A study of Mus musculus with 2 samples.

Results

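The genes described here are 9 transcription factors of resting, antigen-inexperienced T cells: Tcf7, Lef1, Satb1, Bach2, Foxp1, Foxo1, Klf3, Ets1 and Bcl11b. They were chosen by name from a written list and not by a measured cut-off, though earlier results of these data were known. They are 9 of the 32285 genes in the count tables. All 9 were found under 1 row each. Immune cells from lymph nodes of C57BL/6 mice, either wild type (WT) or conditional knockouts (CKO) of Rpa1, were captured in droplets, and the 3′ ends of their transcripts were counted with unique molecular identifiers (UMIs). Each genotype is 1 library. The labels name no Cre line or promoter, no deleted exons, no treatment, and no age or number of mice, so the cells in which Rpa1 was deleted are not known from them.

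A naive T cell leaves the thymus, circulates through lymph nodes and stays quiescent until its receptor meets antigen. Tcf7 (encoding TCF1) and Lef1 are paired DNA-binding factors of the Wnt pathway family that uphold T cell identity and the naive and memory states. Bcl11b commits thymocytes to the T lineage, and Satb1 organises chromatin in developing and naive T cells. Foxo1 and Foxp1 are forkhead factors of quiescence, Foxo1 driving homing and survival genes such as Ccr7 and Il7r. Bach2 is a repressor of effector differentiation in T and B cells, Klf3 a repressor of the Krüppel-like family, and Ets1 the founding member of the ETS family. Several of these genes are lowered when a T cell becomes an effector cell.

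The WT library held 12769 barcodes and 84813609 UMIs, and the CKO library 13754 barcodes and 76200586 UMIs. After filtering, 11169 WT and 11804 CKO cells were kept. The libraries shared 56 barcode sequences. T cells were gated on raw UMIs, with at least 2 UMIs over Cd3d, Cd3e and Cd3g and none of Cd79a. They made up 69.1% of kept cells in WT (7715 cells) and 29.9% in CKO (3531 cells). Cells with a Trdc UMI formed the Trdc gate, and cells without one were split into a Foxp3 gate (no Cd8b1), a CD4 gate (Cd4 without Cd8b1 or Foxp3) and a CD8 gate (Cd8b1 without Cd4 or Foxp3). The CD4 gate held 2803 WT and 1347 CKO cells, the CD8 gate 2779 and 459, the Foxp3 gate 223 and 199, and the Trdc gate 232 and 624. A further 1678 and 902 T cells had none, or a mixture, of these markers. B cells (at least 2 Cd79a UMIs, no Cd3e) numbered 2754 in WT and 7319 in CKO.

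The gates were checked against markers they did not use. Trac, the T cell receptor alpha chain, was detected in 97.2% of WT and 95.6% of CKO cells of the CD4 gate, and in 2.98% and 1.78% of B cells. Il2ra was detected in 58.7% and 56.3% of the cells of the Foxp3 gate, against 2.75% and 3.93% of the CD4 gate. Cd8a was detected in 91.2% of WT but 78.0% of CKO cells of the CD8 gate, against 1.32% and 0.520% of the CD4 gate. The Trdc gate was a mixture. In WT, 50.4% of its cells had a single Trdc UMI and no UMI of a gamma constant gene, against 19.1% in CKO, and those cells held Trac at 665 and 713 counts per 1000000 UMIs (CPM). Cells with at least 2 Trdc UMIs and a UMI of Tcrg-C1, Tcrg-C2 or Tcrg-C4 were 28.4% of the gate in WT (66 cells) and 65.7% in CKO (410 cells). They held Trac at 171 and 151 CPM and are called γδ-marker cells. That narrower gate was added after the data were seen.

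With 1 library per genotype no difference can be set against variation between mice, so no test was made, and genotype and library cannot be told apart. UMIs were summed per gate and library and divided by the gate's total to give CPM, and the CKO over WT ratio was taken. All intervals are exact 95% intervals and cover counting error only. In sums over cells, fewer expressing cells and less RNA per cell cannot be told apart. A level at least 25% higher or at least 20% lower in CKO was counted as past the fold mark, and the same count over all genes with a mean of at least 20 CPM in the gate serves as background. Rpa1 itself stood at 46.8 CPM in WT and 23.7 in CKO in the CD4 gate and at 35.1 and 27.2 in the CD8 gate. In γδ-marker cells it stood at 26.4 and 33.0 (11 and 101 UMIs), and in B cells at 40.8 and 35.7. The labels do not say whether the counted 3′ end lies in the deleted part, so these levels show how much tagged transcript was present and no more.

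RefSeq promoter sequences (build GRCm38.p6, 250 bases before to 50 bases after the start, most upstream listed start) were found for 8 of the 9 genes; Ets1 had none. Of these, 4 are shown, and no result below rests on them. Tcf7 and Lef1 are the family pair whose levels parted in the CD4 gate. Bach2 and Bcl11b were higher in the CD8 gate, as was Foxo1, which is not shown. Each is written 5′ to 3′ on the gene's own strand, and capitals mark letters matched on either strand by a TCF and LEF motif (CTTTGA), an ETS motif (CGGAAG) or a KLF motif (CACCC); a forkhead motif (GTAAACA) was also searched and had no match in any of the 8. No matches overlapped.
Tcf7, chr11:52282965-52283264, minus strand: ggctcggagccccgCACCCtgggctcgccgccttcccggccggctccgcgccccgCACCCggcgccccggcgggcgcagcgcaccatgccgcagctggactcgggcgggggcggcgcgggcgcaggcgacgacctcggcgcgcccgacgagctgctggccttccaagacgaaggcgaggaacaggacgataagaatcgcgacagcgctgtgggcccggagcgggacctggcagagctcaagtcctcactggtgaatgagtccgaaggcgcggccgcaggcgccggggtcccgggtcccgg
Lef1, chr3:131110047-131110346, plus strand: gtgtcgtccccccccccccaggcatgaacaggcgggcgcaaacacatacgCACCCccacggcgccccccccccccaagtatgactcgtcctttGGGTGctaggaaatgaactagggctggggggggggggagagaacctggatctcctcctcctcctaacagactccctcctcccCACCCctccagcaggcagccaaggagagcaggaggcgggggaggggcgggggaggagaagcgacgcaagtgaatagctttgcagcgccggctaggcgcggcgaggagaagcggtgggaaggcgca
Bach2, chr4:32417185-32417484, plus strand: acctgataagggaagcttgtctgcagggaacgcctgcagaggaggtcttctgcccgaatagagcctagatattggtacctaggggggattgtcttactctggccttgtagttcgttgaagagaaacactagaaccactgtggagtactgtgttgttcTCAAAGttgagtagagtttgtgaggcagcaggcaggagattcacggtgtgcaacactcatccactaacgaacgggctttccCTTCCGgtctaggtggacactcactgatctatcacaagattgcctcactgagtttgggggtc
Bcl11b, chr12:108003365-108003664, minus strand: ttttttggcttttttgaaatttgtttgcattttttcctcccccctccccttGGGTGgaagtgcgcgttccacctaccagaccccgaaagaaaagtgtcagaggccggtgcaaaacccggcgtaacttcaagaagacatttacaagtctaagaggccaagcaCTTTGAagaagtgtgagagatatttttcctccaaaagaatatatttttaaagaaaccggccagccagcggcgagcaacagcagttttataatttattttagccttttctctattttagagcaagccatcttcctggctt

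Counted from the start, the TCF and LEF letters in Bcl11b begin at -89 and those in Bach2, on the opposite strand, at -93. Bach2 also holds the ETS letters at -12. The TCF and LEF letters also lie at 1 of 4 listed starts of Lef1 and 1 of 3 of Foxp1, not the starts used here. The Foxo1 window held no match of any motif searched. The KLF letters occur in Tcf7 at -236 and -195, in Lef1 at -200, -157 and -75, and in Bcl11b at -199. Among all 32851 listed promoters of this length, 16.0% hold the TCF and LEF letters, 16.9% the ETS letters, 57.5% the KLF letters and 3.65% the forkhead letters. A match describes the letters in the window and is not a bound site. The Bach2 window lies inside the gene as GENCODE draws it (chr4:32238804-32586108), downstream of its first annotated start. The Bcl11b start used here, and the TCF and LEF letters before it, also lie inside its gene (chr12:107910403-108003602). Counts from 3′ ends do not tell which start was used.

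The first question was where in the lymph node each factor was expressed. Tcf7 and Lef1 were higher in each T cell gate than in B, natural killer or myeloid cells. Tcf7 (chr11:52252371-52283014) stood at 493 CPM in WT and 512 in CKO in the CD4 gate, 328 and 323 in the CD8 gate, 217 and 171 in the Foxp3 gate, and 3.55 and 2.87 in B cells. Its order of gates was CD4, Trdc, CD8, Foxp3, natural killer cells (Ncr1 without Cd3 or Cd79a UMIs), myeloid cells and B cells in both libraries. In CKO the Trdc and CD8 gates had overlapping intervals, as did natural killer and myeloid cells. Lef1 (chr3:131110471-131224356) was likewise highest in the CD4 gate, at 690 CPM in WT and 575 in CKO, and stood at 13.6 and 11.9 in B cells. After every cell was thinned to 2000 UMIs, Tcf7 was detected in 57.6% of WT and 61.1% of CKO cells of the CD4 gate and in 0.588% and 0.584% of B cells. Without thinning these shares were 87.9% and 87.3%, and 1.45% and 1.13% (median depths 6016 and 5770 UMIs in the CD4 gate, 4037.5 and 3878 in B cells). A B cell share of this size is read as background.

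Bcl11b (chr12:107910403-108003602) was also far lower in B cells than in T cells, but its order of gates matched neither that of Tcf7 nor that of Lef1. It stood at 585 and 569 CPM in the CD4 gate, 560 and 550 in the Foxp3 gate, 4.63 and 3.63 in B cells, and 8.30 and 13.3 in natural killer cells, where it rested on 3 and 14 UMIs. In myeloid cells of WT no Bcl11b UMI was found. Satb1 (chr17:51736187-51833290) reached beyond T cells, at 686 and 743 CPM in the CD4 gate and 179 and 199 in B cells. Ets1 (chr9:32636221-32757820) stood at 787 and 739 in the CD4 gate, 513 and 550 in the CD8 gate, 538 and 575 in B cells and 567 and 530 in natural killer cells. In myeloid cells it stood at 45.8 and 72.3 CPM. The natural killer gate held 63 WT and 176 CKO cells.

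Foxp1 and Bach2 were higher in B cells than in the CD4 gate. Foxp1 (chr6:98925338-99522721) stood at 718 CPM in WT and 776 in CKO B cells, against 465 and 461 in the CD4 gate, a B over CD4 ratio of 1.54 in WT and 1.68 in CKO. Bach2 stood at 197 and 190 CPM in B cells, against 101 and 103 in the CD4 gate, a ratio of 1.94 and 1.84. Foxo1 (chr3:52268336-52353221) was lower in B cells than in the CD4 gate, at 122 and 134 CPM against 198 and 199. Klf3 (chr5:64803388-64832901) was the only one of the 9 with a higher level in the CD8 than in the CD4 gate in both libraries, by 1.12 times (interval 1.06 to 1.18) in WT and 1.20 times (1.07 to 1.34) in CKO. The other 8 genes had CD8 over CD4 ratios of 0.612 to 0.850 in WT and 0.631 to 0.951 in CKO.

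**Figure D1:**
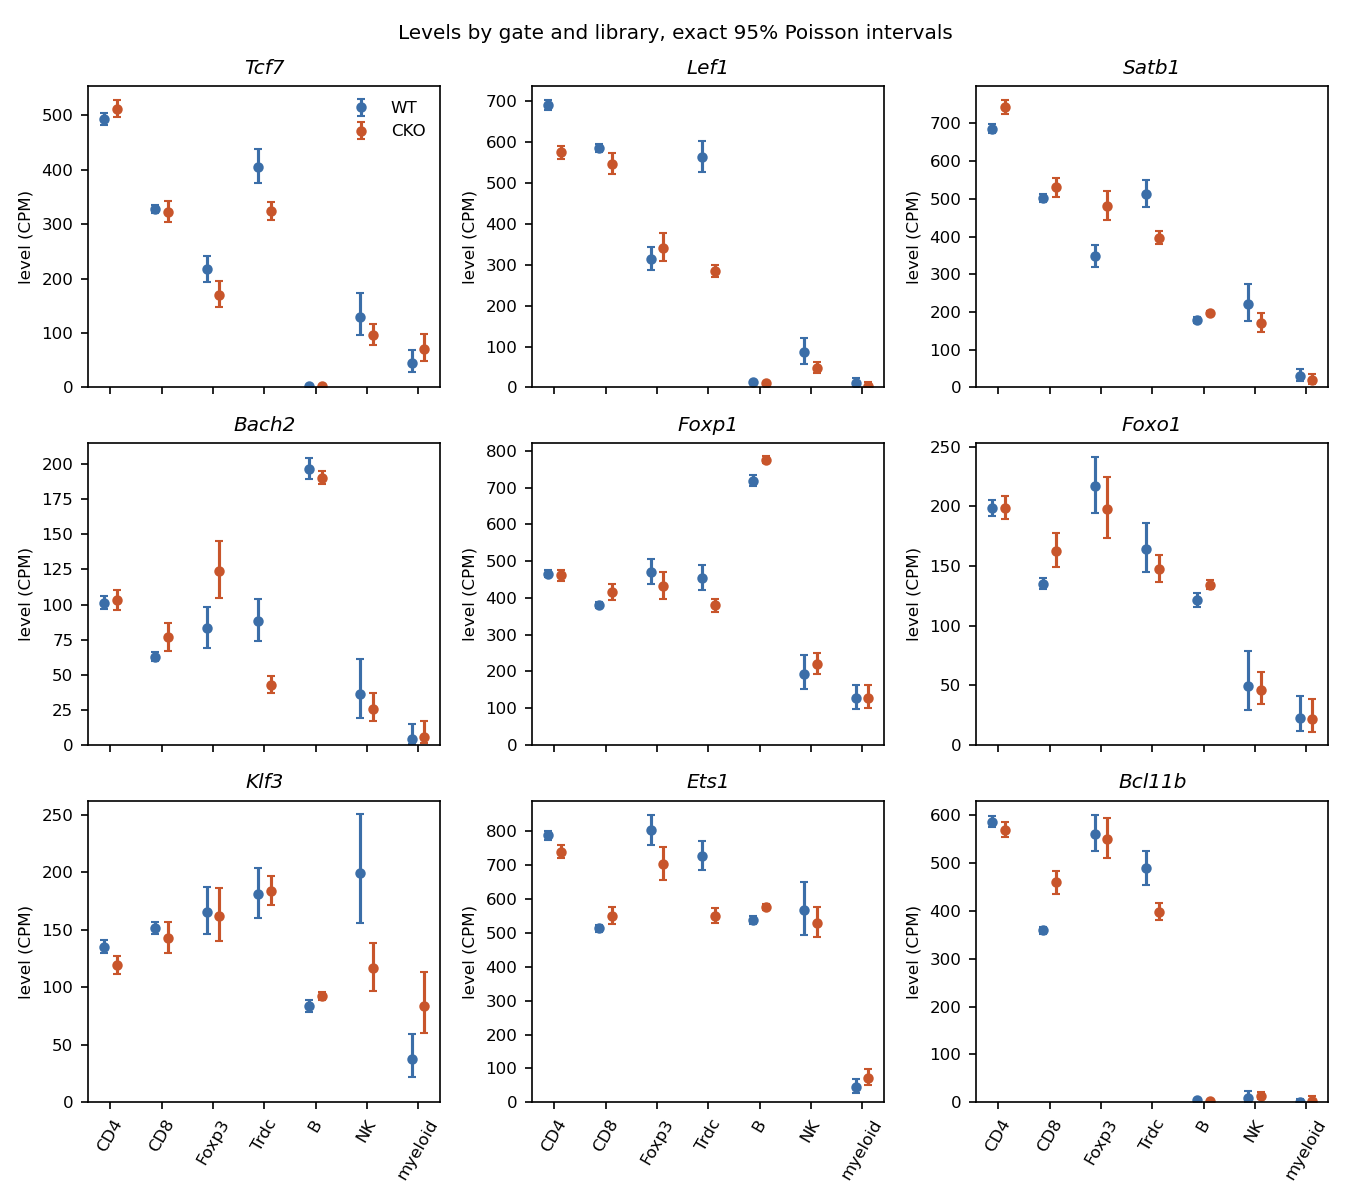
Level of each transcription factor (CPM, linear axis) in the WT and CKO libraries by gate, with exact 95% Poisson intervals that cover counting error. Tcf7, Lef1 and Bcl11b drop to between 2.87 and 13.6 CPM in B cells, whereas Foxp1 and Bach2 are highest there.

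Over the whole T gate, Lef1 was the one member past the fold mark, at 624 CPM in WT and 490 in CKO. Its ratio was 0.785 (0.768 to 0.802), and 1.37% of all genes had a lower ratio. The background was 7.35% of 5323 genes, and 1.58% counting those lower in CKO. The other 8 genes had ratios of 0.945 (Klf3) to 1.08 (Bcl11b). The summed level of the 9 genes was 3598 CPM in WT and 3555 in CKO. The gates did not make up equal parts of the T cells, the CD8 gate being 36% of T cells in WT and 13.0% in CKO and the Trdc gate 3.01% and 17.7%. With the gates weighted as in WT, the log2 ratio of Lef1 was -0.21 in place of -0.35, and no member passed the mark.

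In the CD4 gate the members parted in small steps. Lef1 rested on 12395 WT and 4677 CKO UMIs and had the lowest ratio of the 9, at 0.833 (0.806 to 0.862), and 3.96% of all genes had a lower one. Klf3 followed, at 135 CPM in WT and 119 in CKO (0.883, 0.819 to 0.951), and Ets1 at 0.939 (0.911 to 0.968). Satb1 had the highest ratio, at 1.08 (1.05 to 1.12), and Tcf7 stood at 1.04, with a lower bound just above 1. None of the 9 passed the mark, where 7.42% of 5246 genes did. Foxo1 (198 and 199 CPM), Foxp1 (0.991), Bcl11b (0.971) and Bach2 (1.02) had intervals that held 1. The median log2 ratio of the 9 was -0.01, and that of all genes at the floor 0.05. Over the 13 alternatives that gave a ratio in this gate, Lef1 lay between 0.798 and 0.839, Klf3 between 0.846 and 0.929, and Satb1 between 1.04 and 1.16. Tcf7, Bach2, Foxp1, Foxo1 and Bcl11b changed side of 1 under at least 1 of them.

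The lower Lef1 level in the CD4 gate was also seen in the share of cells. At 2000 UMIs per cell, 71.9% of WT cells (70.2 to 73.6) and 65.5% of CKO cells (62.9 to 68.1) had a Lef1 UMI, and 94.5% and 91.9% without thinning. In B cells the Lef1 share was 2.13% and 2.27%, and 5.19% and 4.48% without thinning. Cells with a Lef1 UMI and no Tcf7 UMI were 29.7% of the gate in WT and 23.8% in CKO, and cells with Tcf7 and no Lef1 were 15.4% and 19.4%. Cells with both were 42.2% and 41.8%. The joint share thus stayed level, and cells with neither were 12.7% in WT and 15.1% in CKO. Detection of a single gene leaned from Lef1 towards Tcf7, but these classes depend on depth. Without thinning most cells of the gate had a UMI of each gene, so the classes are not read as cell states. The mean number of the 9 genes detected per cell was 4.74 in WT and 4.65 in CKO, against 2.38 and 2.46 in B cells.

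**Figure D2:**
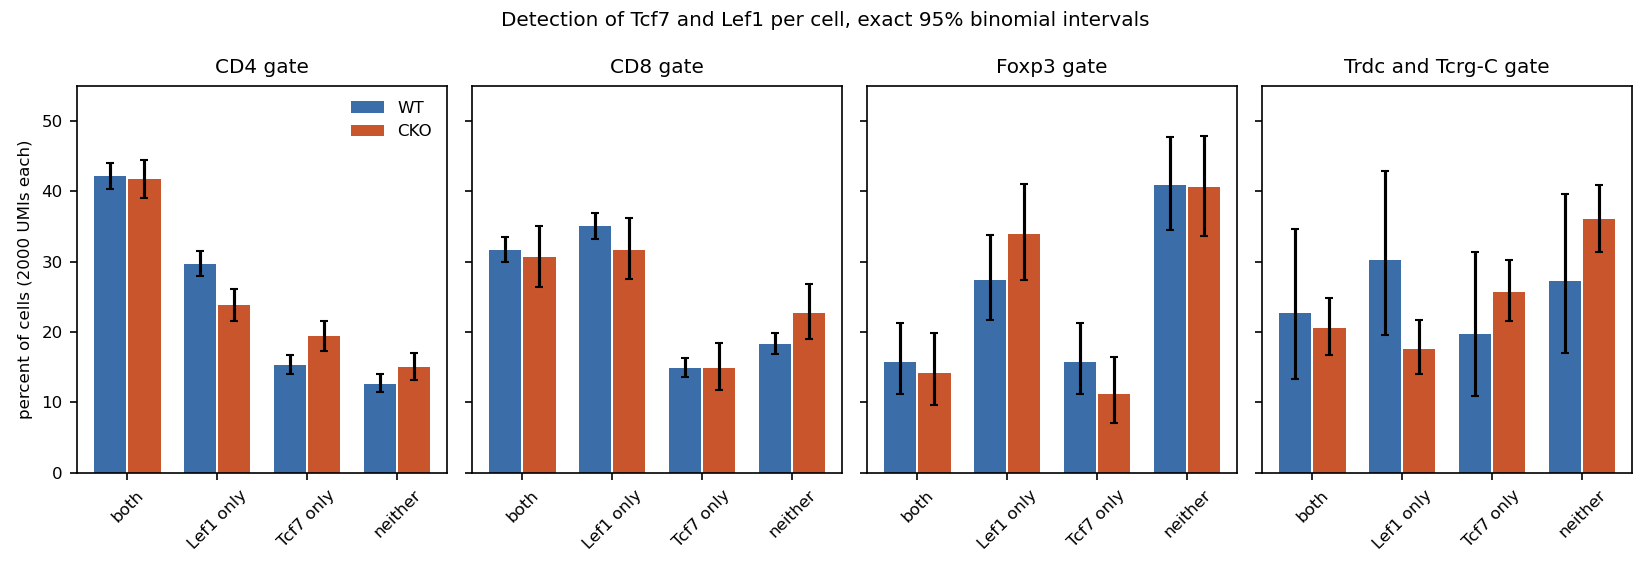
Percent of cells with UMIs of Tcf7 and Lef1, of 1 of them or of neither, after thinning each cell to 2000 UMIs, with exact 95% binomial intervals. In the CD4 gate the bar for Lef1 without Tcf7 is 29.7% in WT and 23.8% in CKO.

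Within the CD4 gate the Lef1 ratio was followed through cell states. In naive-marker cells (Ccr7 detected, S100a4 and Ccl5 not), which were 68.6% of the gate in WT and 69.2% in CKO, Lef1 stood at 714 and 599 CPM, or 0.839 times (0.807 to 0.873). None of the 9 passed the mark there, against 8.44% of all genes. In effector-marker cells (S100a4 or Ccl5 detected, 98 and 44 cells) it stood at 411 and 379 CPM, with an interval of 0.748 to 1.14. Interferon-stimulated genes differed between the libraries. In the CD4 gate 25 of 29 measured ones were higher past the mark in CKO, against 7.08% of all genes of at least 5 CPM. Split by 5 of them (Isg15, Ifit1, Ifit3, Rsad2 and Usp18), Lef1 had a ratio of 0.833 in cells with no such UMI, 0.834 in cells with 1, and 0.834 in cells with more. Il7r, a surface receptor of naive cells, was detected in 46.3% of WT and 20.7% of CKO cells after thinning. Lef1 had a ratio of 0.838 in cells with an Il7r UMI and 0.886 in cells without, a split chosen after seeing the data.

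In the CD8 gate the pattern of members was another. Bcl11b stood at 359 CPM in WT and 459 in CKO (7609 and 1468 UMIs). Its ratio of 1.28 (1.21 to 1.35) was the one of the 9 past the mark, where 16.2% of 5237 genes were. After thinning, it was detected in 49.1% of WT cells (47.2 to 51.0) and 58.0% of CKO cells (53.3 to 62.6), and in 87.3% and 89.8% without thinning. The B cell shares at the same depth were 0.919% and 0.445%. Bach2 followed at 62.8 and 76.5 CPM (1.22, 1.06 to 1.40) and Foxo1 at 135 and 163 CPM (1.20, 1.09 to 1.32). Lef1 stood at 586 and 547 CPM (0.933, 0.887 to 0.981), Klf3 at 152 and 143, and Tcf7 at 328 and 323. A smaller share of CKO than of WT cells in this gate had a Cd8a UMI, and its part in these ratios was not tested. Ratios in this gate rest on 459 CKO cells, and all genes leaned upward: their median log2 ratio was 0.11, and that of the 9 was 0.10. Ribosomal protein genes took 38.2% of UMIs in WT and 34.3% in CKO. With ribosomal protein and mitochondrial genes left out of the totals, the median log2 ratio of all genes was 0.017. The cause of the lean was not tested. Dividing by the median ratio lowered all log2 ratios by 0.12. Bcl11b then stood at 1.18, its lowest value over 13 alternatives, and Satb1 and Ets1 changed side of 1.

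The CD8 gate was then split by state. In naive-marker cells (1688 WT and 281 CKO cells) Lef1 stood at 647 and 645 CPM, with a ratio interval of 0.939 to 1.06. In those cells Bach2 had a ratio of 1.32 (1.11 to 1.56), Bcl11b 1.27 (1.19 to 1.37) and Foxo1 a log2 ratio of 0.32, narrowly past the mark, so that 3 of 9 were past the mark, against 18.2% of all genes. In effector-marker cells (470 and 66 cells) Lef1 stood at 375 and 226 CPM, and the ratio was 0.603 (0.503 to 0.717). Tcf7 there had a ratio of 0.801 (0.665 to 0.957), Satb1 0.807 (0.696 to 0.931) and Bach2 0.641 (0.359 to 1.07). All members but Klf3 had a lower ratio in effector-marker than in naive-marker cells. In effector-marker cells 2 of 9, Lef1 and Bach2, were past the mark against 40.4% of all genes. Lef1 was 1.72 times as high in naive-marker as in effector-marker CD8 cells in WT (1.63 to 1.82) and 2.85 times in CKO (2.39 to 3.42). Bach2 was 1.64 times as high in WT (1.39 to 1.93) and 3.38 times in CKO (2.02 to 6.05). In the CD4 gate the ratios of Lef1 were 1.74 and 1.58. For Klf3 in CD8 cells this naive over effector ratio was 0.992 in WT and 0.749 in CKO, the others being above 1 in both libraries.

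Some markers of other cells differed between the libraries in the CD8 gate. B cell markers summed to 319 CPM in WT and 313 in CKO, and myeloid markers to 95.6 and 78.4. The summed level of 4 natural killer markers was 78.0 CPM in WT and 246 in CKO. Gzma, a granzyme that cytotoxic T cells also make, stood at 29.1 and 209, and Prf1, the perforin they share with natural killer cells, at 48.1 and 36.6. The defining markers Ncr1 and Klrb1c were at 0 in CKO, and Ncr1 was at 0.047 CPM in WT. The 4 γδ markers summed to 1.70 and 13.7 CPM, Trdc being 0 by the gate. S100a4, used to define effector-marker cells, stood at 6.41 CPM in WT and at 7.80 times that level in CKO (6.17 to 9.88). The part of these in the Lef1 ratio of effector-marker cells was not tested.

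**Figure D3:**
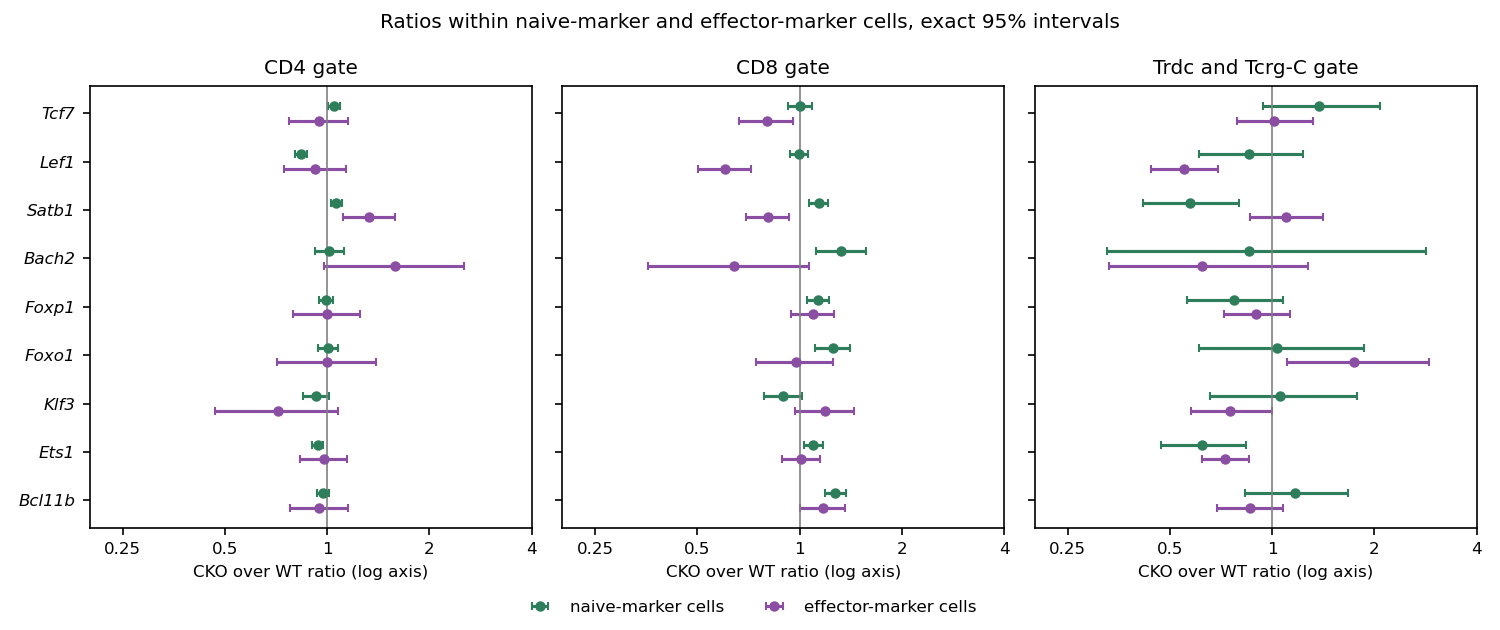
CKO over WT ratio (log axis) of each factor within naive-marker and effector-marker cells of the CD4 gate, the CD8 gate and γδ-marker cells (panel Trdc and Tcrg-C), with exact 95% intervals for counting error. Lef1 lies at 0.839 in naive-marker CD4 cells, at 0.603 in effector-marker CD8 cells and next to 1 in naive-marker CD8 cells.

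In the Foxp3 gate Satb1 and Bach2 were higher and Tcf7 lower in CKO. Satb1 stood at 348 CPM in WT and 481 in CKO (1.38, 1.23 to 1.55) and Bach2 at 83.0 and 124 CPM (1.49, 1.17 to 1.91; 130 and 149 UMIs). Tcf7 stood at 217 and 171 CPM (0.786, 0.658 to 0.938). With 223 and 199 cells, 31.8% of all genes passed the mark, and 3 of 9 members is close to that share. The states in the gate differed: effector-marker cells were 20.6% in WT (46 cells) and 2.51% in CKO (5 cells), and Ctla4 stood at 241 and 104 CPM. Within naive-marker cells of the gate Bach2 had a ratio of 1.62 (1.16 to 2.26), Satb1 a log2 ratio of 0.33 and Tcf7 a ratio of 0.662 (0.528 to 0.827). Ets1 stood at 802 and 702 CPM over the gate and at 769 and 725 in its naive-marker cells.

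In the Trdc gate 5 of 9 members were lower past the mark and none higher, where 25.2% of all genes passed either way and 8.33% were lower. Lef1 stood at 565 CPM in WT and 285 in CKO and Bach2 at 88.0 and 43.0. The make-up of the gate differed as given above, and the values within γδ-marker cells were another set. There Lef1 stood at 399 and 254 CPM (0.637, 0.538 to 0.758), Ets1 at 733 and 507 (0.692, 0.612 to 0.785) and Foxo1 at 96.1 and 150 (1.56, 1.13 to 2.21; 40 and 458 UMIs). Satb1 (0.907), Tcf7 (0.952), Bach2 (0.745), Foxp1 (0.887), Klf3 (0.819) and Bcl11b (0.895) had intervals that held 1. With 66 WT cells, 40.4% of all genes passed the mark, and 4 of the 9 did: Lef1, Ets1 and Bach2 lower and Foxo1 higher. Effector-marker cells were 63.6% of γδ-marker cells in WT and 63.4% in CKO, and within them Lef1 stood at 350 and 192 CPM (0.549, 0.439 to 0.694). Cd8b1 was detected in 19.7% of WT and 43.2% of CKO γδ-marker cells, and its part in these ratios was not tested.

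**Figure D4:**
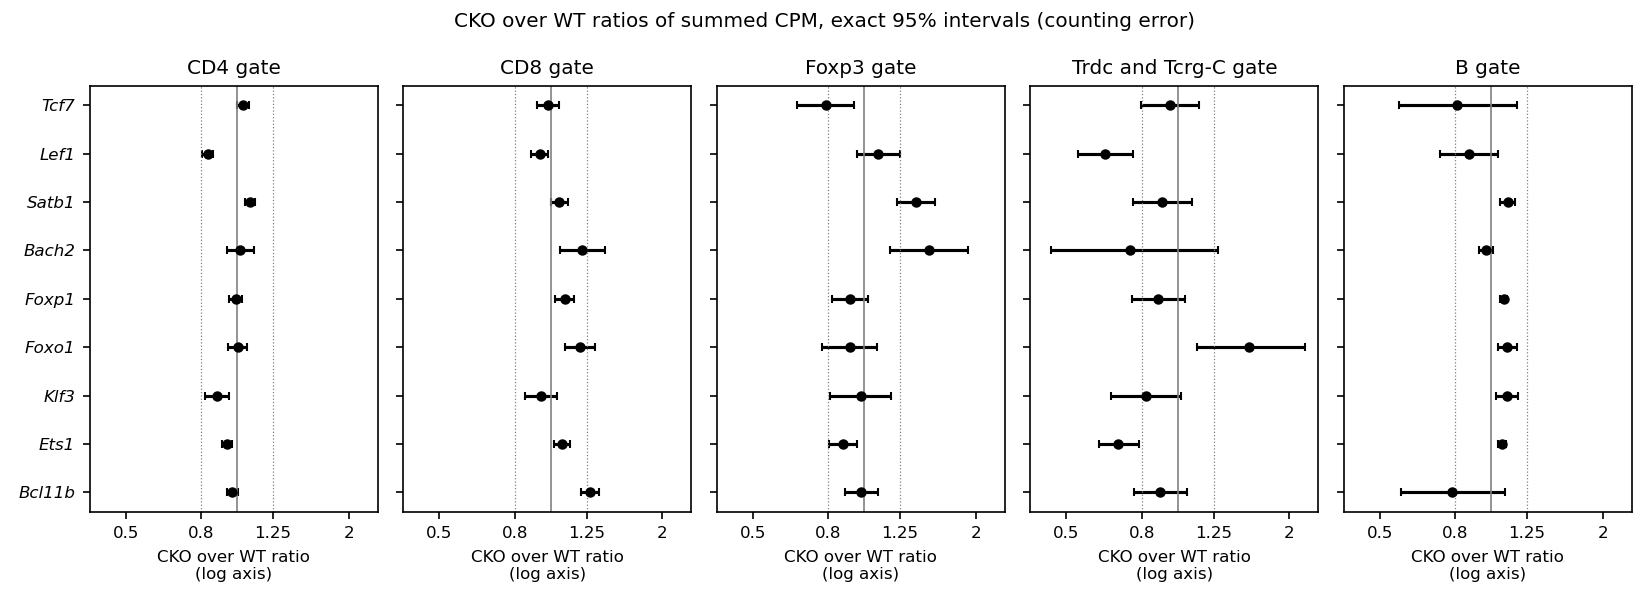
CKO over WT ratio (log axis) of each factor by gate with exact 95% intervals for counting error; dotted lines mark the fold mark, 20% lower and 25% higher. Lef1 lies left of 1 in the CD4, CD8 and γδ-marker (panel Trdc and Tcrg-C) gates, at 0.833, 0.933 and 0.637, and at 1.09 in the Foxp3 gate.

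In B cells 6 of the 9 genes reached 20 CPM, and none of those passed the mark, where 4.64% of 5469 genes did. Foxp1 (1.08), Satb1 (1.11), Foxo1 (1.11), Klf3 (1.10) and Ets1 (1.07) were slightly higher in CKO and Bach2 slightly lower (0.968). These directions were the same under all 8 alternatives run in B cells. Bcl11b, at 60 and 119 UMIs and a background level, had a ratio of 0.784 (0.570 to 1.09). In natural killer cells 43.9% of all genes passed the mark, and of the members Lef1 stood at 85.7 and 47.4 CPM (31 and 50 UMIs) and Klf3 at 199 and 117 CPM (72 and 123 UMIs).

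Other genes of the same families and pathways were read with a floor of 5 CPM. In the CD4 gate 7.08% of all genes were then higher and 5.94% lower past the mark, and in the CD8 gate 17.9% and 6.05%. Of the forkhead relatives, 1 of 9 measured was higher and none lower in the CD4 gate; Foxn3, a forkhead repressor, stood at 138 CPM in WT and 178 in CKO (interval of the ratio 1.21 to 1.38). Of 11 ETS relatives, 2 were higher there; Elf1 was lower without reaching the mark, at 284 and 245 CPM. Of 21 measured cofactors of TCF and FOXO proteins, none passed in the CD4 gate. Tle4, a Groucho co-repressor, stood at 135 and 117 CPM, and Pik3ip1, an inhibitor of PI3 kinase, at 120 and 98.2 CPM. In the CD8 gate 2 cofactors were higher and 2 lower: Hdac1, a histone deacetylase, stood at 75.5 and 102 CPM and Sgk1, a kinase that phosphorylates FOXO proteins, at 42.0 and 25.6.

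Other T cell transcription factors numbered 26, of which 3 were higher and 2 lower in the CD4 gate. Zfp36l2, an RNA-binding protein of quiescence listed with them, stood at 489 and 336 CPM in the CD4 gate and at 428 and 283 in the CD8 gate, lower in both. Effector transcription factors were more spread. In the CD4 gate 5 of 15 were higher and 4 lower: Maf, a factor of helper subsets, stood at 41.5 and 10.7 CPM, Id2 at 74.9 and 40.1, Sox4 at 31.6 and 61.3, and Nr4a1, induced by receptor signals, at 30.1 and 50.6. In the CD8 gate 9 of 15 were higher and 2 lower. Ikzf2 stood there at 44.3 and 92.5 CPM, and Eomes and Hopx, linked to memory cells, at 51.6 and 34.4 and at 67.3 and 43.7.

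Naive-state genes other than the 9 factors did not share 1 direction. Of 22, 2 were higher and 4 lower in the CD4 gate, and 4 higher and 6 lower in the CD8 gate. Il7r stood at 410 and 153 CPM in the CD4 gate and at 351 and 167 in the CD8 gate. Dapl1, a marker of naive cells, stood at 312 and 142 in the CD4 gate and at 474 and 218 in the CD8 gate. Bcl2, the survival factor, was higher in the CD4 gate, at 171 and 260 CPM. Ccr7 stood at 242 and 249 CPM in the CD4 gate. Igkc, an antibody gene of B cells, stood at 26.2 and 47.7 CPM in the CD4 gate, and leaving out all cells with an Igkc UMI gave Lef1 a log2 ratio of -0.26, the value found with them.

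The likeness of profiles was measured as Pearson's r of log2(CPM + 1) over 14 points, the CD4, CD8, Foxp3, Trdc, B, natural killer and myeloid gates of both libraries, which share libraries and are not independent. Among 5790 other genes, the profiles closest to the mean of the 9 were Dgka (r = 0.993), Rapgef6 (0.985), Srpk1 (0.980), Inpp4b (0.979) and Smad7 (0.979). Dgka, a diacylglycerol kinase that dampens receptor signalling, stood at 295 and 316 CPM in the CD4 gate, 210 and 213 in the CD8 gate and 55.4 and 52.6 in B cells. The factors themselves ran from 0.610 (Foxp1) to 0.960 (Satb1), each being part of that mean. Between members, Bach2 and Foxp1 were closest (r = 0.961), followed by Lef1 and Bcl11b (0.944), and Tcf7 and Foxp1 were farthest apart (-0.160).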

How the data were processed

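Each library was deposited as whole UMI counts for 32285 genes per barcode, with no barcode under 500 UMIs. The version that made them is uncertain: per the file headers it was Cell Ranger 6.0.2, but version 5.0.0 stands in the submitters' processing notes, beside Seurat 4.0.3 and mm10. The genotype labels gave the groups. Positions are those of GENCODE M21 (GRCm38) by Ensembl ID. Filters required 500 UMIs and 200 genes and allowed 10% mitochondrial UMIs, and the cells with the highest Scrublet scores (Scanpy 1.11.5) were left out at 0.8% per 1000 barcodes, 1304 in WT and 1513 in CKO.

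Counts were summed per gate and scaled to CPM. CPM have exact Poisson, shares exact binomial (Clopper-Pearson) and ratios exact conditional binomial intervals at 95%. For shares, cells were thinned to 2000 UMIs. From each list the 2 highest and 2 lowest ratios in the T, CD4 or CD8 gate, with a mean of at least 20 CPM and an interval that excluded 1, could be named, as could the members, marker genes and the 5 closest profiles. The members and lists were chosen with earlier results of these data known. Alternatives covered doublets, mitochondrial limit, gate, scaling, depth, free B cell RNA, cell state, fold and make-up. Naive-marker cells were set by Ccr7, S100a4 and Ccl5, chosen after the data were seen in place of a planned definition that is not reported here. The ratio step was run on simulated counts with known ratios, drawn with Poisson error only. That is the error its intervals cover, so the run says nothing of variation between cells, libraries or mice.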

Additional observations from a re-analysis of the deposited data

Results flagged for a closer look

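Opposite directions of CKO against WT between the Foxp3 gate and the Trdc gate were found for 2 members. Of all genes, 31.8% passed the fold mark either way in the Foxp3 gate and 25.2% in the Trdc gate. The share of all genes with opposite directions was not counted, so the 2 members have no background beside them. Satb1 had a ratio of 1.38 in the Foxp3 gate and 0.775 in the Trdc gate. Bach2 had a ratio of 1.49 in the Foxp3 gate and 0.488 in the Trdc gate. With 1 library per genotype these differences between gates were not tested. Among γδ-marker cells the ratios were 0.907 for Satb1 (0.760 to 1.09) and 0.745 for Bach2 (0.454 to 1.29), both with intervals that hold 1.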

How the results depend on the processing

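No paired analysis was possible because each genotype has 1 library. For the T gate, the median log2 ratio of the 9 genes (0.03) was -0.047 when ribosomal protein and mitochondrial genes were left out of the totals, -0.061 after division by the median ratio, 0.070 as a mean over cells and 0.12 in naive-marker cells; the count past the fold mark (1) was 0 as a mean over cells, in naive-marker cells, at 1.5-fold and with make-up held equal. The last of these counts, the narrower Trdc gates, the Il7r split and the definition of naive-marker cells used here were chosen after seeing the data. For the CD4 gate, division by the median ratio moved the median (-0.01) to -0.075 and the count (0) to 1. For the CD8 gate, the median (0.10) was 0.0027 with the same totals and -0.017 after division by the median ratio, and 0.18 in naive-marker cells. Its count (1) was 0 under both of those scalings, in cells without the 5 interferon genes and at 1.5-fold, 2 as a mean over cells and after thinning, and 3 in cells with 3000 to 8000 UMIs and in naive-marker cells. For these scalings the cause was not tested. Of all genes in the CD8 gate 16.2% passed the mark, 25.2% in cells without the 5 interferon genes and 18.2% in naive-marker cells. For the other settings named this share was not counted, so changes in the count are not read as results about the members. In the Trdc gate, 14 log2 ratios changed sign. Of members past the fold mark, these were Tcf7 (0.14 in naive-marker cells), Satb1 (0.33) and Ets1 (0.025), both in cells with a single Trdc UMI and no gamma constant UMI. The other 11 were of Klf3, Foxo1, Foxp1 and Bcl11b, among them Foxo1 (0.64 in γδ-marker cells) and Bcl11b (0.17 in naive-marker cells). The percent of all genes past the mark in the CD4 gate was 13.0 with a floor of 5 CPM. Of 126 member ratios over the alternatives in the T gate, 113 kept their direction, as did 106 of 117 in the CD4 gate, 108 of 117 in the CD8 gate, 101 of 117 in the Foxp3 gate, 121 of 135 in the Trdc gate and 70 of 72 in B cells. With log2(CPM + 10), Dgka and Rapgef6 were again the closest profiles. Small numbers of cells limit the Foxp3 gate, γδ-marker cells, natural killer cells and effector-marker cells, where Bach2 rested on 16 CKO UMIs in the CD8 gate.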

Other observations

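In cells with a single Trdc UMI and no gamma constant UMI, Satb1 stood at 628 CPM in WT and 790 in CKO (1.26, 1.11 to 1.42) and Lef1 at 626 and 494 CPM (0.788, 0.686 to 0.905). T cells with none or a mixture of the subset markers gave Lef1 a ratio of 0.833 (0.797 to 0.871) and Klf3 0.814 (0.741 to 0.894).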
